A study of Mus musculus with 6 samples.

Results

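Interferon-stimulated effector genes are the genes that a cell switches on to resist viruses once it senses interferon. A list of 42 of them, chosen by name with earlier results of these data known, was followed in RNA-seq libraries of sorted cap mesenchyme. This tissue of the embryonic mouse kidney caps each ureteric tip and contains the nephron progenitors. All 42 were found among the 26567 genes that could be paired with transcripts of the deposited tables, and 41 passed the filter on low counts and entered the test over 16989 genes. The mice were C57BL/6 embryos at embryonic day 18.5. Every embryo carried Cre recombinase under the control of Six2, a transcription factor of nephron progenitors, and alleles of Dnmt1 that Cre can delete. Dnmt1 restores DNA methylation on newly made strands at replication. There were 3 libraries labelled Dnmt1 +/-, called heterozygous here, and 3 labelled Dnmt1 -/-, called knockout. Deletion was thus limited to cells with Six2-driven Cre and their descendants, and the heterozygous controls also carried Cre and 1 deleted allele. Whether each replicate was a separate embryo or litter is not on the labels. By Y-linked genes each group held male and female libraries, so its libraries were not all repeats of 1 sample. The p-values reflect only how much these samples varied, part of which may be technical.

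Type I and type III interferons bind receptors that activate the kinases Jak1 and Tyk2. The signal leads to the assembly of ISGF3, a complex that holds Stat2 and Irf9. ISGF3 binds the interferon-stimulated response element (ISRE) in the promoters of effector genes, whereas interferon gamma acts on genes with a gamma-activated site (GAS). The effectors bind or cut viral RNA, modify proteins with the ubiquitin-like Isg15, block the entry or release of particles, or deplete nucleotides. Inhibitors of DNA methyltransferases are known to raise such genes in some cancer cells.

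Promoter sequences are shown because the rule that chose the members did not use them and many of the members share the ISRE there. RefSeq promoter sequences (GRCm38.p6, the assembly also named mm10) of 300 bases, from 250 before to 50 after the transcription start, were matched by symbol for 33 of the 42 members. The 9 others were Oas1b, Oas2, Usp18, Mx1, Mx2, Rtp4, Parp9, Parp14 and Ifi204. The ISRE core, searched on both strands as GAAA, any 2 bases and GAAA again, with overlapping matches counted, was found in 18 of the 33 (54.5%) against 3.99% of 27025 genes with a promoter in the table. The GAS core TTCNNNGAA, with N for any base, was found in 8 of the 33 (24.2%) against 9.55% of the same genes, and the median number of CpG sites was 6 in the members and 8 in all genes. A match describes letters and shows no binding. Stretches before the start are given here 5′ to 3′ in the direction of each gene, with ISRE matches in capitals. The first 3 genes rose in the knockout and the other 3 did not pass the test.
Ifit1: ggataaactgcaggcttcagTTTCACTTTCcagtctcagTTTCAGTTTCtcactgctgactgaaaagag
Oas1a: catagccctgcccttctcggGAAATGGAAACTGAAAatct
Bst2: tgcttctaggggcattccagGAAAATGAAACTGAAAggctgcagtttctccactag
Isg15: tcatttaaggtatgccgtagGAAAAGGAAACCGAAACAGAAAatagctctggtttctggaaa
Gbp2: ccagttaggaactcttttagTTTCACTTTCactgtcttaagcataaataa
Rsad2: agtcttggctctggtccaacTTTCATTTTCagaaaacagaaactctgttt
They lie at chr19:34640765-34640833 (plus strand), chr5:120907526-120907565 (minus), chr8:71537567-71537622 (minus), chr4:156200855-156200916 (minus), chr3:142620584-142620633 (plus) and chr12:26456543-26456592 (minus). Isg15 held 3 overlapping matches, Ifit1, Oas1a and Bst2 held 2 each, and Gbp2 and Rsad2 held 1 each. Among members with a promoter in the table, 3 of the 7 that rose and 15 of the 26 that did not pass held the core, so its presence did not separate the called from the other members.

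Library totals ran from 46741667 to 61585484 estimated counts, so that 3 counts were worth 0.0487 to 0.0642 CPM. Levels below are CPM, the counts of a gene relative to its library total after TMM scaling for library composition. The targeted gene Dnmt1 had 40.04, 52.4 and 51.7 CPM with 1 deleted allele and 20.9, 18.6 and 14.9 CPM in the knockouts (log2 fold change -1.41 ± 0.15 SE; edgeR adjusted p = 0.000264). Nephron progenitor markers, 10 genes including Six2, ran in sum from 1339 to 1463 CPM in heterozygous and from 886.0 to 1086 CPM in knockout libraries, so they were present in every library, at lower sums in the knockouts. Of the 10, 3 fell (Cited1, Wt1 and Hoxd11, edgeR adjusted p = 0.0344, 0.00724 and 0.000233), none rose, and Six2 itself was at 113 ± 12.0 CPM against 92.0 ± 15.5 CPM (SD, n = 3 each) without passing. The call for Cited1 was lost without any 1 of the heterozygous libraries or knockout replicate 3, and that for Wt1 without knockout replicate 2. Over all genes tested 1.92% were called lower. In bulk samples fewer cells of a type and less RNA per cell cannot be told apart. The part of these markers in the member results was not tested. Knockout replicate 1 stood apart by its endothelial, stromal and ureteric markers, given with the member results below. By Y-linked genes, heterozygous replicates 1 and 3 and knockout replicate 2 were male. Heterozygous replicate 2 and knockout replicates 1 and 3 were female, so sex was not balanced over the groups.

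Interferon-stimulated effector genes were higher in the knockout for 8 of the 41 tested members (19.5%), none was lower and 33 did not pass (edgeR quasi-likelihood test, p adjusted by Benjamini-Hochberg over all genes, threshold 0.05, here and below). Over all genes tested 4.92% were called higher and 1.92% lower. The 8 were Ifit1, Ifit2, Oas1a, Oas2, Irf9, Bst2, Xaf1 and Lgals3bp. Fitted log2 fold changes were above 0 for 38 of 41 members (92.7%) against 49.6% of all genes, with a median of 0.83 against -0.003. Because the members were chosen with earlier results of these data known, these contrasts with all genes describe the list and do not test it. On transcript-length-scaled levels (TPM) the median over the 29 members with a mean of at least 1 TPM was 0.41 with log2(TPM + 1) and 0.54 with log2(TPM + 0.1), and -0.13 and -0.14 over all genes. That mean was taken over both groups, so some members passed only through their knockout level. Examples were Cxcl10 (0.500 TPM in heterozygous and 4.64 TPM in knockout libraries) and Ifit1 (0.436 and 2.31 TPM). These medians therefore only describe the members kept. The knockout and heterozygous libraries did not overlap for 22 members, 21 of them higher in the knockout and 1, Oas3, lower, while 14.8% of all genes lay higher and 14.2% lower without overlap. At an unadjusted p under 0.05 there were 25 members, each of them higher. The share of all genes at that threshold was not computed, so this count has no background beside it.

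The number of calls depended on single libraries and on the test. Without heterozygous replicate 1 or 3 it was 4 or 2, and without knockout replicate 2 or 3 it was 3 or 18. It was 19 with DESeq2, which also called all 8 of the members above, and 3 or 2 with limma on log2(TPM + 1) or log2(TPM + 0.1), on 29 members. None of these analyses called a member lower. With sex as a covariate 6 members were called, 5 of them among the 8. Over all genes 836 of 16989 were called higher in the main fit and 1356 of 18699 with DESeq2. With limma 411 and 371 of 13323 were called higher on the 2 TPM scales. Without heterozygous replicate 1 or 3 there were 718 of 17382 or 635 of 17448. Without knockout replicate 2 or 3 there were 526 of 17272 or 916 of 17290. Ifit2 and Lgals3bp were called without each of the 6 libraries in turn.

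**Figure D1:**
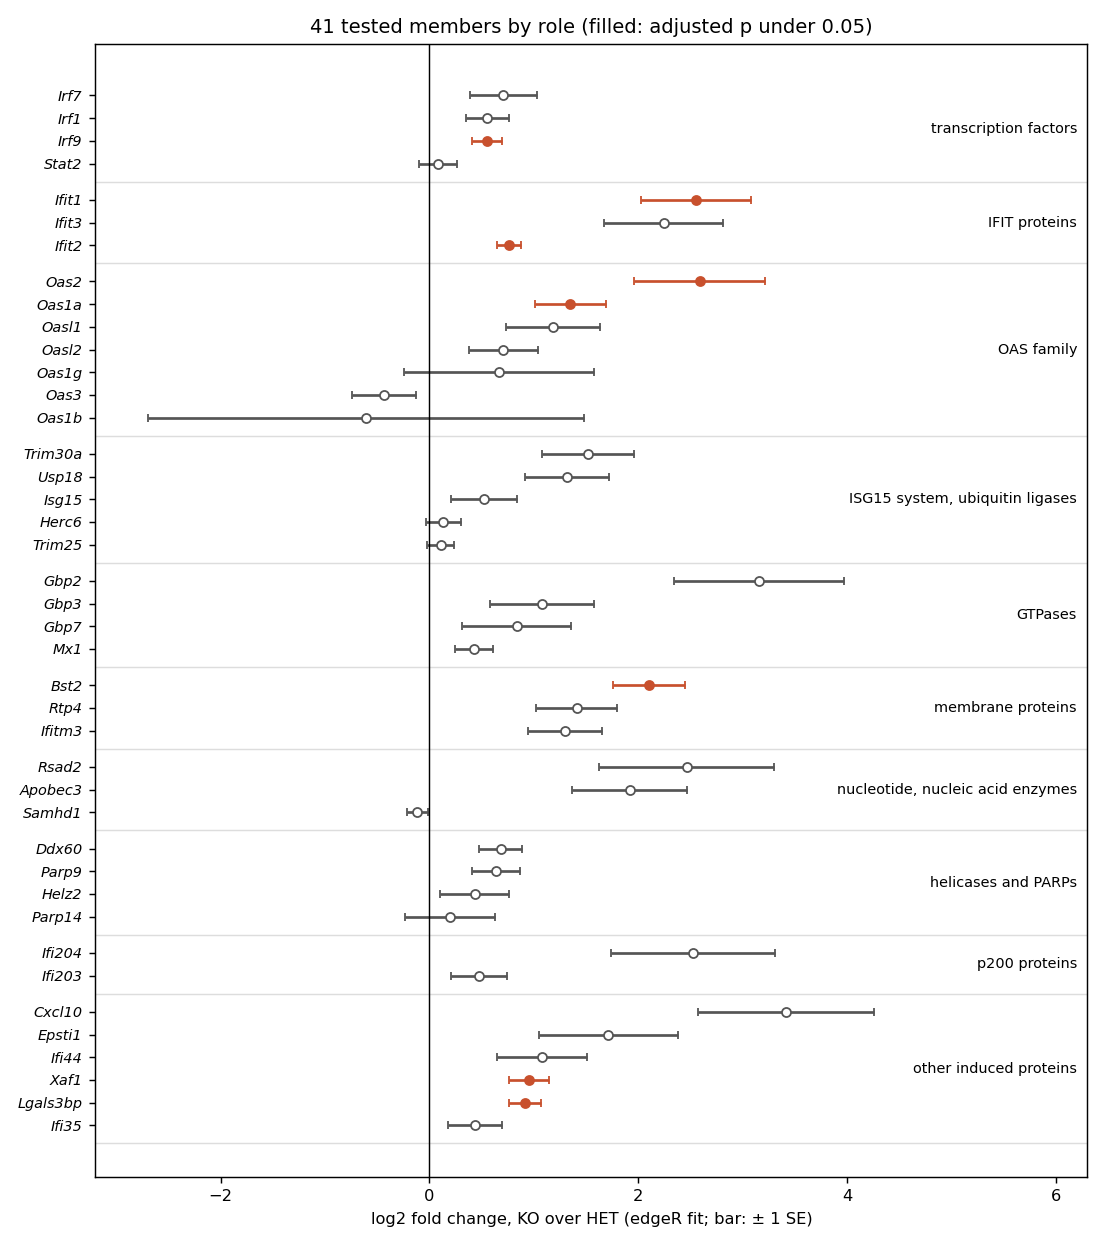
Fitted log2 fold change (knockout over heterozygous, x axis) of the 41 tested members, grouped by role on the y axis, with bars of 1 SE and filled points for an adjusted p under 0.05. All but 3 points lie right of 0, and the 8 filled points fall in 5 of the 10 role groups.

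Members differed widely in their level before any comparison. On the TPM scale the heterozygous means ran from 59.3 for Ifitm3, which blocks fusion of viruses in endosomes, down to 0.0439 for Ifi204, a DNA-binding p200 protein. Irf1 (16.8 TPM) and Samhd1 (15.1 TPM) followed, and Bst2, Lgals3bp, Irf9 and Ifit2 lay between 7.34 and 8.70 TPM, closer to each other than the SD of Bst2 (1.98, n = 3). Expressed as CPM, 11 members were under 1 in the heterozygous group, 24 between 1 and 10 and 7 at 10 or more. In the knockout Bst2 held the second place with 34.9 TPM, after Ifitm3 with 136 TPM, and its 19.8 to 48.4 TPM overlapped the 15.7 to 28.5 TPM of Irf1.

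Among the transcription factors Irf9 rose, and the 3 others did not pass. Irf9, the DNA-binding subunit of ISGF3 (chromosome 14, 55603985 to 55610030, GRCm38.p6), was at 14.4, 18.5 and 14.1 CPM in heterozygous against 24.8, 24.5 and 19.8 CPM in knockout libraries. Every knockout value was above every heterozygous one, with a log2 fold change of 0.55 ± 0.14 (SE), with an edgeR adjusted p of 0.0478. The call was lost without heterozygous replicate 1 or 3, without knockout replicate 1 or 2, with library totals, TPM, length offsets or sex as a covariate (edgeR, adjusted p up to 0.173 over the left-out libraries). Irf7, which drives interferon gene transcription, and Irf1, an activator of many of these genes, had log2 fold changes of 0.71 ± 0.32 and 0.56 ± 0.20 (SE), with knockout replicate 3 inside the heterozygous range for both. Stat2, the ISGF3 subunit that carries the activation domain, was at 9.50 ± 0.542 CPM in heterozygous against 10.1 ± 2.32 CPM in knockout libraries (SD, n = 3 each), and its sign turned with library totals or TPM.

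Of the IFIT proteins, which bind RNA and halt its translation, Ifit1 and Ifit2 rose, and the value of Ifit3 did not pass. Ifit2 (chromosome 19, 34550550 to 34576534) was at 20.7, 25.1 and 22.3 CPM against 34.1, 41.4 and 39.98 CPM in the knockout, a gap between the groups in all 3 libraries. The mean was 22.7 ± 2.26 CPM against 38.5 ± 3.85 CPM (SD; n = 3 per group), or 0.76 ± 0.11 (SE) as a log2 fold change, with an edgeR adjusted p of 0.00253, and it was called in all 16 alternative analyses. Ifit1, which recognises RNA lacking the cap methylation of host messengers, was at 1.40, 0.766 and 0.662 CPM against 6.11, 8.41 and 2.12 CPM. That was a log2 fold change of 2.55 ± 0.53 (SE), with an edgeR adjusted p of 0.0268, lost without any 1 of the heterozygous libraries or without knockout replicate 2 (edgeR, adjusted p up to 0.121), and on TPM. Ifit3, a partner that stabilises Ifit1, was at 0.544, 0.970 and 1.57 CPM against 6.68, 6.09 and 1.77 CPM (edgeR adjusted p = 0.0592). Knockout replicate 3 of Ifit3 lay just above the highest heterozygous library, and 63.2% of the 31-base words of its transcript also occur in other genes, foremost I830012O16Rik, so the division of reads between these copies is uncertain. All 3 lie in 1 cluster on chromosome 19, and Ifit2, with the highest level, had the smallest of their fitted fold changes.

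The OAS enzymes make oligoadenylates that switch on RNase L, and here 2 of 7 rose while 5 did not pass. Oas2 had 0.0194, 0.238 and 0.177 CPM (1, 14 and 8 counts) in the heterozygous and at 0.933, 0.926 and 0.806 CPM (44, 48 and 41 counts) in the knockout libraries. It was the called member with the lowest level, and its 3 knockout values lay close together (log2 fold change 2.59 ± 0.62 SE; edgeR adjusted p = 0.0353). The call was lost when any library except heterozygous replicate 1 was left out and with a replicate block, sex or length terms, and Oas2 reached neither the CPM nor the TPM minimum (edgeR, adjusted p up to 0.137). Oas1a was at 0.953, 0.987 and 1.01 CPM against 2.65, 3.41 and 1.47 CPM, a log2 fold change of 1.35 ± 0.34 (SE), with an edgeR adjusted p of 0.0431, and was lost on TPM, with the block or sex, and when any library except knockout replicate 3 was left out (edgeR, adjusted p up to 0.181). Of the 31-base words of the Oas1a transcript 68.8% also occur in other genes, foremost Oas1g, so how reads were split between them is uncertain, and Oas1g was at 2 to 30 counts per library. Oas1b, a flavivirus resistance gene, had 216, 0 and 0 counts in heterozygous replicates 1 to 3 and 31, 12 and 95 counts in the knockout. A single heterozygous library therefore set its fitted value of -0.61 ± 2.09 (SE), and without it the fitted value was 8.55, against 2 libraries at 0, a size that depends on the prior count and is no bound. Oas3, a long enzyme of the same chromosome 5 cluster, was at 1.59, 1.53 and 1.41 CPM against 1.23, 0.829 and 1.30 CPM without passing (edgeR adjusted p = 0.435). It was the member whose knockout values all lay below the heterozygous ones, while Oas2 beside it rose. The OAS-like genes Oasl1, which dampens Irf7 translation, and Oasl2 had log2 fold changes of 1.19 ± 0.45 and 0.71 ± 0.33 (SE) and did not pass, and for Oasl1 the knockout values of 1.80, 1.74 and 0.982 CPM all exceeded the heterozygous 0.292, 0.851 and 0.838 CPM.

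**Figure D2:**
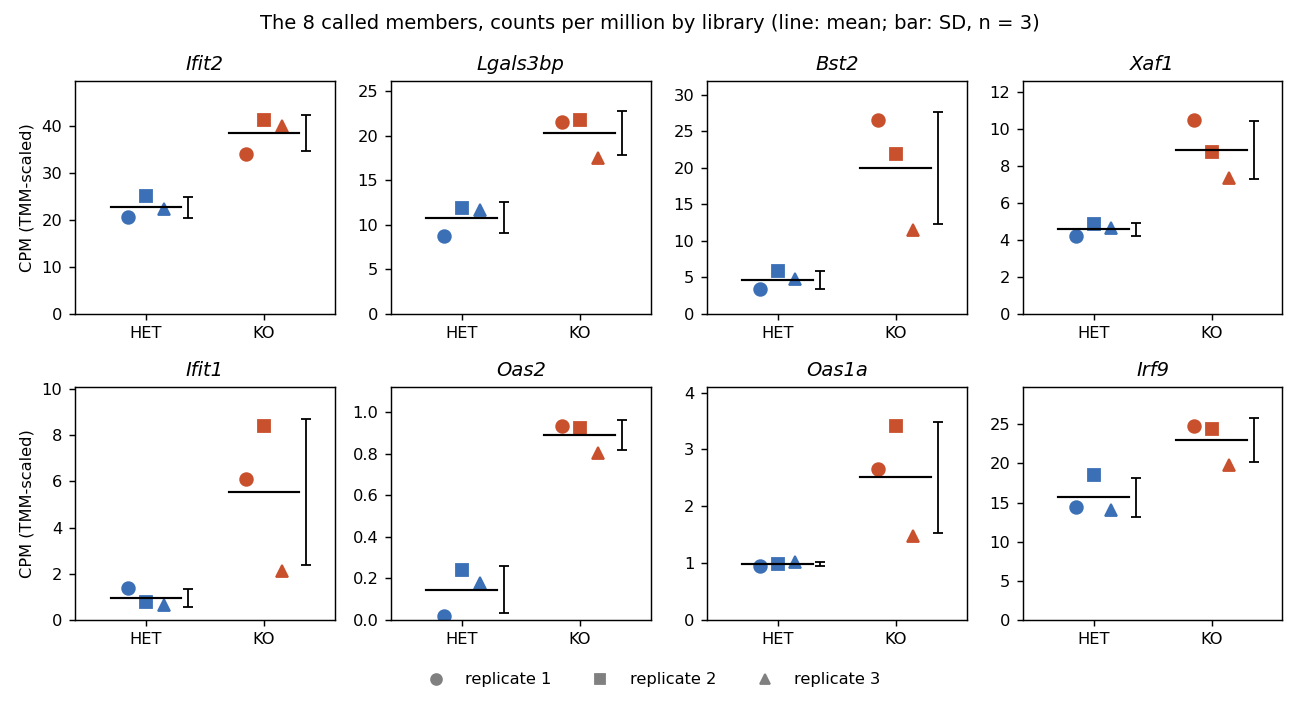
CPM (y axes from 0, each with its own range) of the 8 called members in the heterozygous (HET) and knockout (KO) libraries, with marker shape for the replicate, a line at the mean and a bar of 1 SD (n = 3). No knockout point lies at or below a heterozygous one, and replicate 3 is the lowest knockout point in 7 of the 8 panels, the exception being Ifit2.

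Of the Isg15 system and the ubiquitin ligases, no member passed. Isg15 itself, the ubiquitin-like modifier, was at 2.59, 2.26 and 2.91 CPM against 4.50, 4.59 and 2.08 CPM, so that knockout replicate 3 was the lowest of all 6 libraries (edgeR adjusted p = 0.365). Usp18, which removes Isg15 and restrains the interferon receptor, had 2.64, 2.30 and 1.32 CPM against 6.62, 6.50 and 2.53 CPM (edgeR adjusted p = 0.0938). As for Isg15, 2 knockout libraries were above the heterozygous range and replicate 3 was not. Trim30a, a ubiquitin ligase of the Trim family, had 0.603, 0.749 and 0.574 CPM against 2.74, 1.99 and 0.806 CPM (edgeR adjusted p = 0.0729). Herc6, the ligase that attaches Isg15 in the mouse, and Trim25, which ubiquitinates the sensor RIG-I, had log2 fold changes of 0.13 ± 0.17 and 0.11 ± 0.13 (SE), and both signs turned with library totals, that of Trim25 also on TPM and with length offsets.

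The interferon-induced GTPases gave no call, although Gbp2 had the second highest fitted fold change of all members. Gbp2, a guanylate-binding protein that coats pathogen membranes, was at 0.389, 0.255 and 0.441 CPM in heterozygous against 5.88, 3.26 and 0.550 CPM in knockout libraries, a log2 fold change of 3.16 ± 0.82 (SE), with an edgeR adjusted p of 0.0734. Knockout replicates 1 and 2 thus differed by far more from replicate 3 than replicate 3 did from the heterozygous libraries. Gbp3 had 1.26, 1.55 and 0.861 CPM against 4.09, 2.80 and 0.904 CPM, and Gbp7, next to it on chromosome 3, had 4.98, 4.75 and 4.74 CPM against 14.7, 8.12 and 3.01 CPM, both with replicate 3 within or below the heterozygous range. Mx1, which blocks viral polymerases in the nucleus, had 5.17, 5.05 and 4.50 CPM against 6.96, 5.90 and 6.97 CPM, a narrow gap that did not pass (edgeR adjusted p = 0.202). Mx2, its cytoplasmic relative, was the member not tested, with 11, 0 and 4 counts against 0 in all 3 knockout libraries. A count of 0 allows up to 3 counts.

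Of the membrane proteins 1 of 3 rose, and the groups did not overlap for any of the 3. Bst2, or tetherin, which holds budding particles on the cell surface (chromosome 8, 71534255 to 71537472), was at 3.36, 5.84 and 4.70 CPM against 26.6, 21.9 and 11.5 CPM. The knockout mean of 19.99 ± 7.73 CPM compared with 4.63 ± 1.24 CPM (SD; n = 3 per group), or 2.11 ± 0.34 (SE) as a log2 fold change, with an edgeR adjusted p of 0.0128. Even the lowest knockout library had more than the highest heterozygous one, and the call was lost only without heterozygous replicate 1 or 3 among the 16 alternatives (edgeR, adjusted p up to 0.0761). Ifitm3 had 22.7, 32.5 and 25.6 CPM against 98.1, 59.97 and 40.9 CPM (log2 fold change 1.30 ± 0.35 SE; edgeR adjusted p = 0.108), and was called without knockout replicate 1 and without knockout replicate 3. Rtp4, a chaperone of membrane receptors, had 1.50, 2.45 and 2.43 CPM against 8.29, 5.82 and 2.83 CPM (edgeR adjusted p = 0.0636). For both genes the knockout libraries spread more widely than the heterozygous ones.

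The enzymes acting on nucleotides and nucleic acids did not pass. Rsad2, or viperin, which makes a chain-terminating nucleotide, was at 0.875, 2.89 and 2.43 CPM against 22.3, 8.49 and 3.46 CPM (log2 fold change 2.46 ± 0.84 SE; edgeR adjusted p = 0.179). Apobec3, a cytidine deaminase that mutates retroviral DNA, was at 1.13, 2.69 and 0.816 CPM against 9.74, 3.93 and 3.97 CPM (log2 fold change 1.92 ± 0.55 SE; edgeR adjusted p = 0.0942). Both genes were highest in knockout replicate 1. The 1842-base transcript of Apobec3, ENSMUST00000023054, took 22.4% of its counts in the heterozygous and 54.7% in the knockout group, and this share was not tested. Samhd1, which hydrolyses the nucleotides that reverse transcription needs, was at 32.3 ± 2.37 and 29.8 ± 2.44 CPM (SD, n = 3 each), with a log2 fold change of -0.11 ± 0.10 (SE).

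Helicases and ADP-ribosyltransferases had log2 fold changes between 0.20 and 0.68, and none passed. Ddx60, a helicase that aids RIG-I, was at 4.38, 3.90 and 3.04 CPM against 6.60, 5.77 and 5.80 CPM, with knockout values close together (edgeR adjusted p = 0.0869). Parp9, which works with the ligase Dtx3l, also had no overlap between groups (log2 fold change 0.64 ± 0.23, SE), although its sign turned on TPM. Helz2 and Parp14 exceeded the heterozygous range in knockout replicate 1 and in no other knockout library, and without that library their fitted values were -0.019 and -0.41 on the log2 scale.

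Among the remaining members Lgals3bp and Xaf1 rose. Lgals3bp, a secreted glycoprotein that binds galectins (chromosome 11, 118392747 to 118401959), was at 8.75, 11.9 and 11.7 CPM against 21.6, 21.8 and 17.4 CPM, a log2 fold change of 0.91 ± 0.15 (SE), with an edgeR adjusted p of 0.00517. The knockout libraries were all well above the heterozygous ones, and the call was lost on TPM alone among the 16 alternatives. Xaf1, which counters inhibitors of apoptosis (chromosome 11, 72301461 to 72313733), was at 4.18, 4.87 and 4.66 CPM against 10.5, 8.72 and 7.35 CPM, a log2 fold change of 0.95 ± 0.19 (SE), with an edgeR adjusted p of 0.0137. It was lost without heterozygous replicate 3 or knockout replicate 2 (edgeR, adjusted p up to 0.0551), and on TPM. The 2597-base transcript of Xaf1, ENSMUST00000146233, had 79.85, 144.6 and 108.2 estimated counts against 314.8, 282.1 and 229.9, whereas the 651-base transcript ENSMUST00000140842 had 89.7, 103.7 and 81.4 against 103.5, 119.2 and 107.8. As kallisto divided the reads, the longer transcript made up 46.7% of the gene in the heterozygous and 62.6% in the knockout group, a share that was not tested.

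Cxcl10, the chemokine that draws T cells, had the highest fitted fold change without passing. It was at 0.447, 0.0681 and 0.662 CPM (23, 4 and 30 counts) against 6.64, 4.18 and 1.51 CPM (313, 217 and 77 counts), a log2 fold change of 3.41 ± 0.84 (SE), with an edgeR adjusted p of 0.0693. All knockout values were higher, and they spread over a wide range. It was called with library totals, with length offsets, with limma on log2(TPM + 1), with DESeq2 and without knockout replicate 3. Ifi44, an interferon-induced protein of the cytoplasm, had 2.45, 2.06 and 2.03 CPM against 7.66, 4.20 and 1.95 CPM, with replicate 3 below the heterozygous range. Ifi35, Epsti1, Ifi203 and Ifi204 did not pass, with log2 fold changes between 0.43 and 2.52, and Ifi204 had 0 to 6 counts per library against 15 to 30. Of the 31-base words of its transcript 43.2% also occur in other genes, foremost Mnda, so its counts are uncertain.

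The knockout libraries differed among themselves, in an order shared by many members. Knockout replicate 1 lay above all 3 heterozygous libraries for 37 of 41 members, replicate 2 for 31 and replicate 3 for 24. Over all genes tested the shares were 33.1%, 33.7% and 27.4%. The median log2 ratio to the heterozygous mean, on CPM + 0.1, was 1.09, 0.89 and 0.39 in knockout replicates 1 to 3, and -0.006, -0.005 and -0.026 over all genes. For 28 members the highest library was knockout replicate 1, for 7 it was replicate 2, for 2 it was replicate 3 and for 4 a heterozygous library. Over all genes tested 20.2%, 18.8% and 10.9% were highest in knockout replicates 1, 2 and 3. The 10 members above the heterozygous range in replicates 1 and 2 but not 3 were Irf1, Irf7, Oasl2, Isg15, Usp18, Herc6, Gbp3, Gbp7, Ifi35 and Ifi44. The share of all genes with this joint pattern was not computed, so the count only describes these members.

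**Figure D3:**
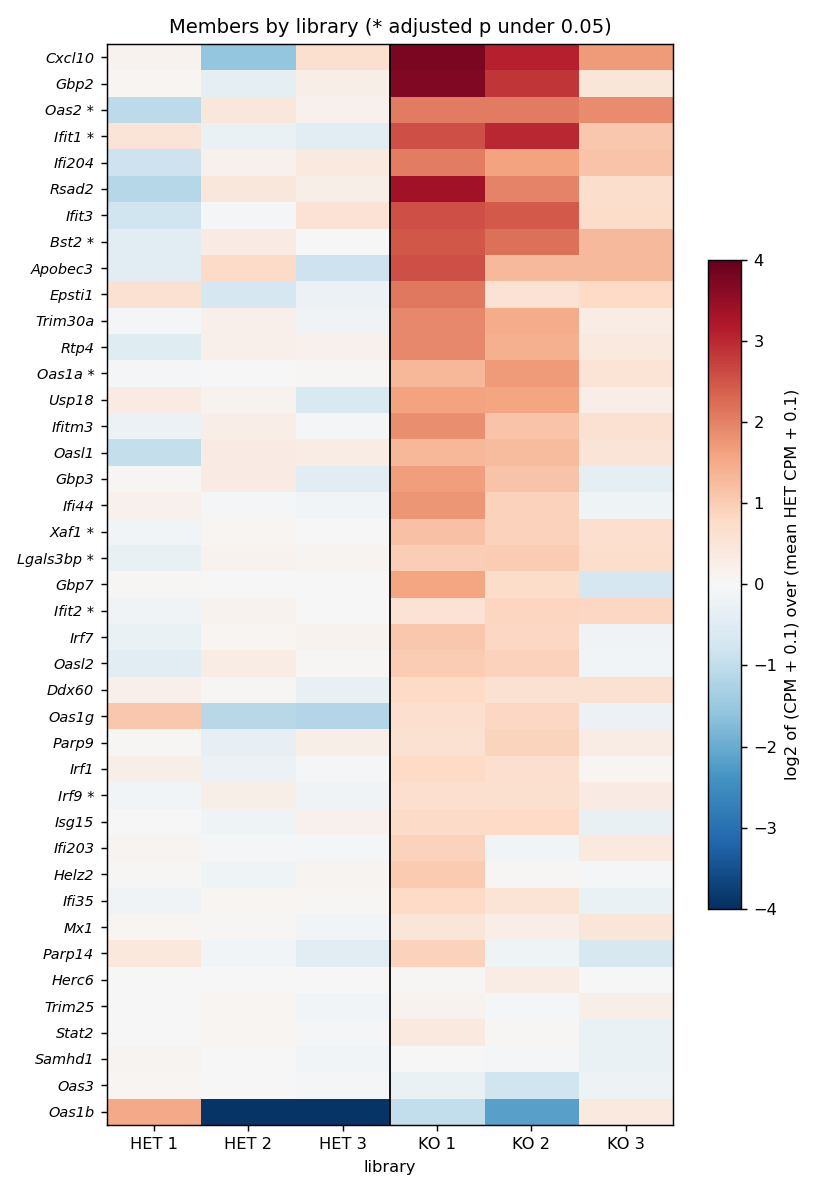
Colour gives log2 of (CPM + 0.1) over the heterozygous mean (CPM + 0.1) for the 41 tested members (rows, ordered by fitted fold change) in the 6 libraries (columns). Red fills most of the columns of knockout replicates 1 and 2 and pales in replicate 3. Oas1b at the foot is high in heterozygous replicate 1 and far below the heterozygous mean in the 2 others, where its count was 0.

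Sums of endothelial, stromal, ureteric, and macrophage and leukocyte markers followed the same order over the knockout libraries. Other lists did not all do so. Early nephron sums were 632.2, 626.4 and 691.0 CPM and erythroid sums 458.1, 261.4 and 579.0 CPM in knockout replicates 1 to 3, both highest in replicate 3. Podocyte sums of 65.55, 51.51 and 47.65 CPM had the same order but lay below the heterozygous 71.79 to 81.02 CPM. All 20 endothelial markers had counts in some library, but Sox17 had 0 in heterozygous replicates 1 and 2 and was not tested. The summed level of the 20 was 88.3 to 104.8 CPM in heterozygous libraries against 333.1, 164.0 and 110.8 CPM in knockout replicates 1 to 3. Pecam1, the endothelial adhesion molecule, was at 1.32, 3.30 and 2.91 CPM against 33.2, 9.43 and 2.32 CPM, so replicate 3 lay within the heterozygous range, as did Cdh5 at 1.10 CPM (1.05 to 2.36 CPM in the heterozygous libraries). Kdr at 1.08 CPM was below that range, whereas Emcn, the 1 called gene of the list, was at 14.2 CPM against 5.05 to 6.14 CPM. Cldn5, Vwf and Mmrn2 of this list departed from the order, with their lowest knockout value in replicate 2. Sums for renal stroma were 388.1 to 466.5 CPM against 1160, 549.7 and 416.7 CPM, and for the ureteric bud 48.7 to 84.7 CPM against 258.7, 142.7 and 74.5 CPM. Of 19 macrophage and leukocyte markers matched, 3 were higher (Lyz2, Mrc1 and Laptm5), with sums of 28.4 to 30.4 CPM against 55.6, 42.3 and 37.9 CPM. The leukocyte antigen Ptprc ran from 0.331 to 0.914 CPM in heterozygous against 0.482 to 1.15 CPM in knockout libraries. Csf1r, a macrophage receptor, ran from 2.47 to 5.02 CPM against 3.16 to 5.20 CPM. Both were among the 14 tested markers of this list that did not pass. Over all genes tested 4.92% were called higher. The part of these cells in the member results was not tested.

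Knockout replicate 1 was the library with the highest endothelial, stromal, ureteric, and macrophage and leukocyte sums. Leaving it out gave 6 called members in place of 8 and a median log2 fold change of 0.63 in place of 0.83. Of the 8 members, 5 were called again (Bst2, Ifit1, Ifit2, Lgals3bp and Xaf1), and Ifitm3 was called in addition.

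**Figure D4:**
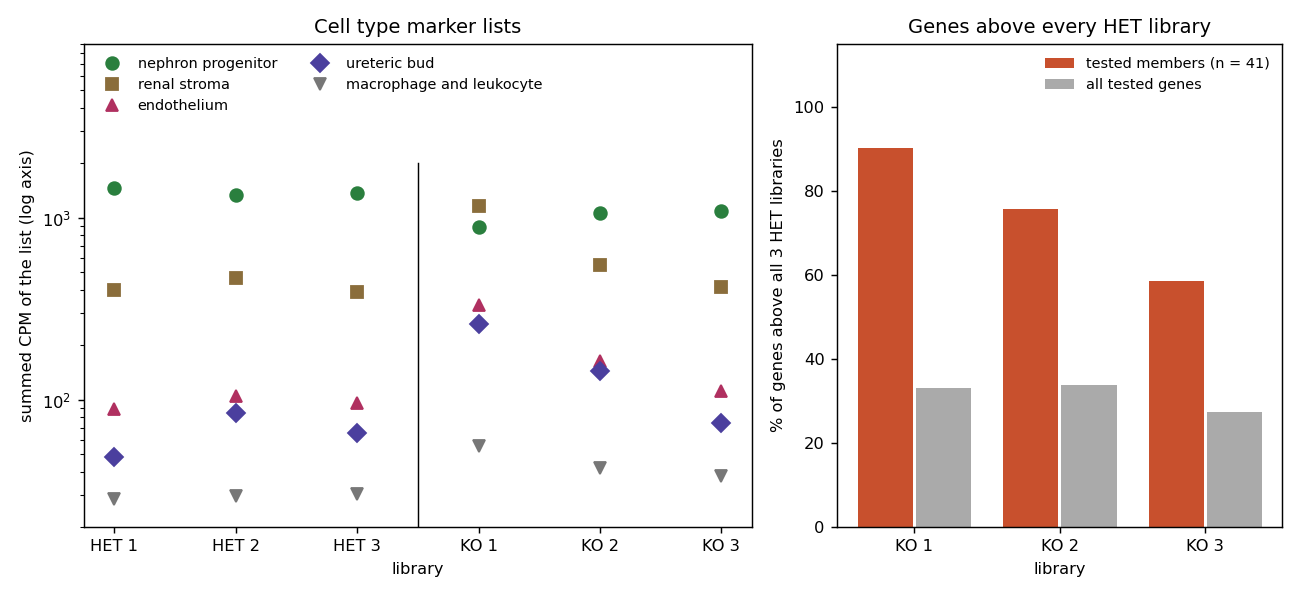
Left: summed CPM (log axis) of 5 cell type marker lists in each library. Right: share of the 41 tested members and of all tested genes that lay above all 3 heterozygous libraries, in each knockout library. Endothelial, stromal and ureteric sums are highest in knockout replicate 1 and lowest among the knockouts in replicate 3, and the members' share runs from 90.2% to 58.5%.

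The genes upstream of the members gave few differences. Of 21 interferon ligand genes, 10 including Ifnb1 were at 0 in every library, the list summed to 15 to 39 counts per library, and the 1 tested gene, Ifnk, did not pass. Ligand transcripts were therefore near the limit of detection in both groups. None of 19 receptor and signalling genes passed. The type I receptor chain Ifnar1 was at 52.1 ± 2.60 and 53.0 ± 2.12 CPM (SD, n = 3 each), and Ifnar2 had a log2 fold change of -0.28 ± 0.15 (SE).

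Of 15 tested nucleic acid sensors 1 rose, a count near the 4.92% of all genes tested that were called higher. Ifih1, the sensor of long double-stranded RNA, was at 0.408, 0.561 and 0.684 CPM against 2.84, 1.41 and 1.04 CPM (edgeR adjusted p = 0.0472), a call that held without knockout replicate 3 and was lost without any 1 of the other libraries (edgeR, adjusted p up to 0.156). Ddx58, which encodes RIG-I, was at 17.9 ± 2.04 and 18.0 ± 3.01 CPM (SD, n = 3 each). Among 11 genes of class I antigen presentation 2 rose, H2-K1 and B2m, beside the same 4.92% of all genes. The median log2 fold change over the list was 1.02. H2-K1, a heavy chain, was at 5.95 to 7.37 CPM against 33.0 to 42.6 CPM and kept its call without each library in turn. B2m, the shared light chain, was at 47.9 to 52.3 CPM against 76.2 to 129 CPM, and the call for B2m (edgeR adjusted p = 0.0110) was lost without any 1 of the heterozygous libraries (edgeR, adjusted p up to 0.0838).

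Other interferon-stimulated genes, 43 tested of 53 listed, gave 6 higher, none lower and 37 not passing, with a median log2 fold change of 0.36. Over all genes tested 4.92% were called higher and 1.92% lower, and this list was not tested as a set. Pnpt1, a ribonuclease of mitochondria, was at 66.4, 54.8 and 52.1 CPM against 99.6, 97.02 and 105.1 CPM, so that replicate 3 was the highest knockout library (log2 fold change 0.80 ± 0.10 SE; edgeR adjusted p = 0.000787). Tor3a, an ATPase of the endoplasmic reticulum, was at 5.91, 4.97 and 6.22 CPM against 10.1, 9.85 and 10.8 CPM (edgeR adjusted p = 0.0105), again with replicate 3 at the top, but leaving out heterozygous replicate 2 ended the call (edgeR, adjusted p = 0.0553). Trim34a, of the Trim family, was higher by a log2 fold change of 1.78 ± 0.33 (SE) and, like Pnpt1, was called without each library in turn. The others were Ifi47, Irgm1 and Gbp9, GTPases whose calls held without knockout replicate 3 and were lost without any 1 of the other libraries (edgeR, adjusted p up to 0.164).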

How the data were processed

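RNA of sorted cap mesenchyme was sequenced on an Illumina HiSeq2000 with an ultra low input protocol, per the labels' protocols. The authors deposited 1 kallisto table per library, with estimated counts, TPM (relative to transcript length and library) and transcript lengths in bases, other values used only as offsets, per the file headers. Per the submitters' processing notes the build was mm10. The version of kallisto, its annotation and its use of strand were not given in the sources used here. Reads of overlapping antisense genes may therefore be mixed.

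GENCODE vM1 paired 74519 of 96626 transcripts with 26567 genes (92.4% to 92.82% of counts). Estimated counts of a gene's transcripts were added up and rounded. Symbols were matched directly, through older symbols or, for Helz2 (BC006779 there), by an exact match of its promoter in the genome. Knockout was compared with heterozygous by edgeR 4.0.16 (R 4.3.3; quasi-likelihood test, TMM, filterByExpr, robust) with Benjamini-Hochberg adjustment over 16989 genes; SE is the log2 fold change over the root of its F statistic. No 2 libraries agreed within sampling noise (chi-square per degree of freedom at least 14.16). The members and lists were chosen with earlier results of these data known. Values by library are given for called members and for members with an absolute log2 fold change of at least 1 and a mean of at least 1 CPM, and for some others chosen after their values were seen. Alternatives, with limma 3.58.1 and DESeq2 1.42.0, are in the closing section. The tests were checked on simulated data. Floors cover counting error only. Some genes of the lists are not reported here.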

Additional observations from a re-analysis of the deposited data

How the results depend on the processing

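Alternatives were DESeq2 (test, or size factors in edgeR), library totals, no count filter or a mean of at least 1 CPM, TPM with limma, length offsets, a replicate block, sex read from Y-linked genes, and each library left out. No member was called lower in any of them. The 8 called members became 19 with DESeq2, 3 and 2 with limma on log2(TPM + 1) and log2(TPM + 0.1), and 2 to 18 without 1 library, and stayed within 1.5 times in the others. The median log2 fold change of the members was 0.41 with log2(TPM + 1), 0.54 with log2(TPM + 0.1) and 0.63 to 1.01 without 1 library. Genes called higher over all genes were 1356 with DESeq2, 411 and 371 on the 2 TPM scales and 526 to 916 without 1 library, against 836. Genes called lower were 1883 with library totals, 591 with DESeq2, 162 with sex and 116 to 272 without 1 library, against 327. The median log2 fold change over all genes was -0.17 with library totals and -0.13 and -0.14 on the 2 TPM scales.

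Signs turned for members that were not called. With library totals Stat2 was at -0.076, Herc6 at -0.033 and Trim25 at -0.054; on log2(TPM + 1) and log2(TPM + 0.1) Stat2 was at -0.039 and -0.060, Trim25 at -0.11 and -0.14 and Parp9 at -0.073 and -0.089; with length offsets Trim25 was at -0.016. Without 1 library Stat2 ran from -0.098 to 0.23, Helz2 from -0.019 to 0.64 and Parp14 from -0.41 to 0.50, each lowest without knockout replicate 1, and Oas1b from -1.65 to 8.55, highest without heterozygous replicate 1. Oas1b was at 1.96 with the block and 0.54 with sex. The cause was not tested.

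No pairing by replicate number was seen: same-numbered libraries correlated at -0.058, -0.048 and -0.031 in their deviations, and none correlated best with its own number. Same-numbered libraries differed in sex, read from Y-linked genes, so this check cannot decide whether they shared a litter or batch. With the replicate block 7 members were called higher, 6 of them among the 8, with a median of 0.90, and over all genes 707 were higher and 265 lower. At 3 counts per library, ligand genes and Mx2 could not be compared.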
